A study of Rattus norvegicus with 3 samples.

Results

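Chemokines are small secreted proteins that guide leukocytes, and 9 chemokine genes were followed here across the cell classes of injured rat spinal cord: Cxcl1, Cxcl2, Cxcl10, Cxcl12, Cxcl14, Ccl2, Ccl3, Ccl4 and Ccl5. They were taken by gene symbol, and all 9 were among the 17328 genes of the deposited tables. Single nuclei of the lesion epicenter came from WT rats of the strain labelled SDrat, 17 weeks old, and the tissue was collected 49 days after the injury. Each of 3 groups had 1 library: an untreated library (injury with no treatment), a scaffold library (an implanted scaffold) and an HGF scaffold library (a scaffold that releases hepatocyte growth factor), with both implants in place for 7 days. The number of animals behind a library is not given in the labels, and the implanting operation and the implanted material cannot be told apart. No value therefore has a replicate, no test between groups was possible, and every interval is a 95% interval for counting error only.

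The 3 libraries held 2248, 2168 and 906 nuclei and 5947483, 5791715 and 1450757 unique molecular identifiers (UMIs, each tagging 1 captured RNA molecule), in the order untreated, scaffold and HGF scaffold, an order kept throughout. Median depth was 1408.5, 1639 and 1047 UMIs per nucleus, so the HGF scaffold library was the smallest and shallowest, and 4 barcodes occurred in more than 1 library. Levels are given as CPM, the UMIs of a gene scaled to a fixed total of UMIs in the same nuclei, and are compared between libraries or classes for 1 gene, never between genes. Chemokine and chemokine receptor genes (55) were kept out of the clustering, so that no class was formed from the genes described. Classes carry the suffix "-like" because they rest on marker lists. Of 22 clusters, 6 stayed unnamed and are called by their leading genes. Nuclei with at least 3 detected markers of each of at least 5 of 7 lineages, called mixed nuclei below, numbered 189, 235 and 24. As the rule counts detected markers, it depends on depth. Of neuron-like nuclei, 60 of 193 were mixed with scaffold (median depth 4394 UMIs) and 2 of 33 with HGF scaffold (1733 UMIs). Leaving out mixed nuclei thus took more from the deeper scaffold library.

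Chemokines bind receptors on the surface of leukocytes and glia and are often sorted by role. Inducible chemokines are switched on in inflamed tissue: Cxcl1 and Cxcl2 act on Cxcr2 and draw neutrophils, Ccl2 acts on Ccr2 and draws monocytes, Ccl3 and Ccl5 act on Ccr1, Ccl4 also draws monocytes and T cells, and Cxcl10, an interferon-induced gene, acts on Cxcr3 of T cells. Homeostatic chemokines are made in resting tissue as well: Cxcl12 acts on Cxcr4 and is scavenged by Ackr3, and Cxcl14 is made by epithelia and glia. In the injured cord, inducible chemokines are known from the first wave of infiltrating leukocytes.

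Proximal promoters are shown for the neutrophil-attracting pair and for Cxcl10, since NF-kappaB and interferon factors are the textbook regulators of these genes. The sequences are from RefSeq on build GRCr8, 5' to 3' on the gene's strand, with capitals marking matches to an NF-kappaB motif (GGGANNTTC or GGNNTTTCC, which can overlap) or to an interferon response motif (TTCNNTTTC), on either strand. Entries matched 5 of the 9 genes (Cxcl1, Cxcl2, Cxcl10, Cxcl12 and Cxcl14). The Cxcl1 window, chr14:17479322-17479441 on the minus strand, and the Cxcl2 window, chr14:17467256-17467375 on the same strand, run from base -120 to base -1 before the start of transcription. The Cxcl10 window, chr14:15988816-15988975 on the plus strand, runs from base -250 to base -91.
Cxcl1: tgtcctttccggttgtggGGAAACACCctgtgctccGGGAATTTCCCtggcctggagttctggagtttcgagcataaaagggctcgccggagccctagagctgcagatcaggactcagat
Cxcl2: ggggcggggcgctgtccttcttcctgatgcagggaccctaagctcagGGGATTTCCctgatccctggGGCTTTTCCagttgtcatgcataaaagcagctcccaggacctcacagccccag
Cxcl10: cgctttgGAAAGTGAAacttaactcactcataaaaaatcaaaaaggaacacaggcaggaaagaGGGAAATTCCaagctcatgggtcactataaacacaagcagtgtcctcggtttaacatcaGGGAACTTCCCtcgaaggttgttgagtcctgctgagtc
An NF-kappaB match of either form lay in 9.45% of 33469 promoters of the same length, 300 bases, and an interferon response match in 9.71%. Cxcl1 held NF-kappaB matches that began at bases -102, -84, -83 and -82, the last 3 overlapping, and Cxcl2 held them at -73 and -53. Cxcl10 held overlapping NF-kappaB matches at -187 and -186 and at -128 and -126, and an interferon response match at -243. Neither motif's letters occurred in the windows of Cxcl12 and Cxcl14. An AP-1 motif, TGANTCA (either strand, in 7.33% of promoters), matched Cxcl10 at -96 and Cxcl14 at -99. A hypoxia motif, ACGTGC (either strand, in 5.73%), matched Cxcl2 at -146. A match is only a run of letters, and binding was not measured.

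Over all nuclei, the inducible chemokines Cxcl1, Cxcl2, Ccl2 and Ccl3 were 8.69 to 618 times as high in the scaffold library as in the untreated one, while the homeostatic chemokines Cxcl12 and Cxcl14 and the interferon-induced Cxcl10 stayed within a factor of 2. A gene was counted as past 2-fold where its CPM ratio was at least 2 or at most 0.5 and it had at least 20 UMIs in the 2 libraries together. By that rule 4 members were higher, 0 lower and 3 neither, and Ccl4 and Ccl5 had too few UMIs. Among all 11931 genes that met the UMI minimum, 7.13% were past 2-fold higher and 3.97% lower. Sums over all nuclei follow the mix of classes as well as the level in each class, and these cannot be told apart in the sums.

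Cxcl2 had 4, 2406 and 254 UMIs, or 0.673 CPM (0.183 to 1.72), 415 CPM (399 to 432) and 175 CPM (154 to 198). Both implant libraries were far above the untreated one, and the scaffold library was the highest. The ratio of scaffold over untreated was 618 (241 to 2269), from 4 untreated UMIs in 4 separate nuclei, and was 376 (128 to 1825) without mixed nuclei. Its neighbour Cxcl1, which acts on the same receptor, had 22, 192 and 57 UMIs, or 3.70 CPM (2.32 to 5.60), 33.2 CPM (28.6 to 38.2) and 39.3 CPM (29.8 to 50.9). For Cxcl1 the implant libraries overlapped and both lay above the untreated library, at ratios of 8.96 (5.75 to 14.6) and 10.6 (6.39 to 18.2).

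Ccl3, a ligand of Ccr1, had 23, 802 and 204 UMIs, or 3.87 CPM (2.45 to 5.80), 138 CPM (129 to 148) and 141 CPM (122 to 161). Here the implant libraries overlapped, at 35.8 times (23.7 to 56.8) and 36.4 times (23.6 to 58.7) the untreated level. Ccl2, the monocyte chemokine, had 15, 127 and 43 UMIs, or 2.52 CPM (1.41 to 4.16), 21.9 CPM (18.3 to 26.1) and 29.6 CPM (21.4 to 39.9). It too was above untreated in both implant libraries, with ratios of 8.69 (5.08 to 16.0) and 11.8 (6.40 to 22.8).

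Ccl4 and Ccl5 were close to absent from the counts. Ccl4 had 2, 13 and 5 UMIs, never more than 1 in a nucleus, and Ccl5 had 3, 2 and 2. Cxcl10 had 16, 13 and 9 UMIs in 9, 12 and 6 nuclei, or 2.69 CPM (1.54 to 4.37), 2.24 CPM (1.20 to 3.84) and 6.20 CPM (2.84 to 11.8). Of its untreated UMIs, 8 came from 2 astrocyte-like nuclei, and its level rested on too few nuclei to place it in a class. Cxcl1, Cxcl2 and Cxcl3, and likewise Ccl3 and Ccl4, are related genes of 1 family, and how reads that fit more than 1 gene were counted is not given in the sources used here.

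**Figure D1:**
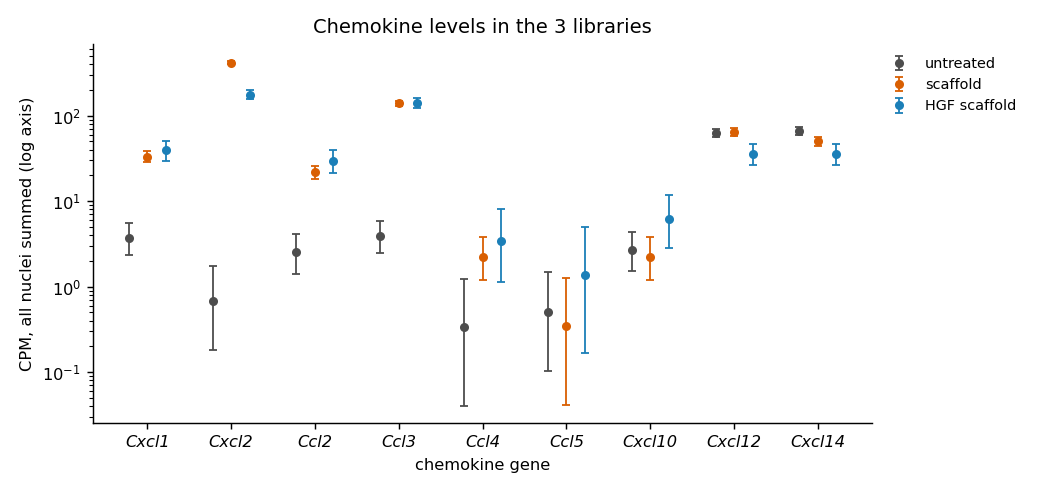
CPM of each of the 9 chemokine genes over all nuclei of the untreated, scaffold and HGF scaffold libraries, on a log axis, with exact Poisson 95% intervals for counting error. Cxcl1, Cxcl2, Ccl2 and Ccl3 lie higher in both implant libraries than in the untreated library, where Cxcl2 stands at 0.673 CPM against 415 and 175 CPM; points of different genes are not comparable in height.

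HGF scaffold over scaffold asks what went with HGF release on top of the implant. Of the members, 1 was past 2-fold higher and 1 lower, with 5 neither and 2 under the minimum, where 2.16% of 11331 genes were higher and 5.46% lower. The lower gene was Cxcl2, with a ratio of 0.422 (0.369 to 0.480). The 10 nuclei with the most Cxcl2 held 77.6% of its UMIs with HGF scaffold and 40.9% with scaffold, a clumping that the interval leaves out. The higher gene was Cxcl10, at 2.76 (1.04 to 6.99) from 9 and 13 UMIs. Cxcl10 went the other way, at a log2 ratio of -0.47, when each nucleus was weighted equally. Cxcl2 stayed lower without mixed nuclei but no longer past 2-fold, at 0.540 (0.461 to 0.630), and the 1 member past it was then Cxcl12, at 0.481 (0.338 to 0.669). Ratios of the other inducible members had intervals that included 1: 1.19 (0.866 to 1.60) for Cxcl1, 1.35 (0.933 to 1.92) for Ccl2 and 1.02 (0.866 to 1.19) for Ccl3.

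Cxcl12 stood at 35.2 CPM (26.2 to 46.2) in the HGF scaffold library against 64.2 (57.9 to 71.1) with scaffold alone and 62.4 (56.2 to 69.1) untreated, and Cxcl14 at 35.2 CPM (26.2 to 46.2) against 49.9 (44.3 to 56.0) and 66.4 (60.03 to 73.3). The HGF scaffold library was thus the lowest for both, with ratios over scaffold of 0.547 (0.4002 to 0.735) and 0.705 (0.513 to 0.952). Against the untreated library, 5 members were past 2-fold higher (Cxcl1, Cxcl2, Cxcl10, Ccl2 and Ccl3) and 0 lower, where 9.27% of 11473 genes were higher and 11.6% lower. Cxcl10 there stood at 2.31 (0.898 to 5.54) from 9 and 16 UMIs, an interval that includes 1, at a log2 ratio of -0.90 with each nucleus weighted equally. This comparison shares a library with each of the others. Without mixed nuclei, Cxcl12 and Cxcl14 were past 2-fold lower against untreated, at 0.448 (0.316 to 0.621) and 0.498 (0.362 to 0.673).

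Most Cxcl2 lay in a small class with neutrophil markers. The neutrophil-like class was a single cluster of 73 nuclei, 0, 61 and 12 in the 3 libraries, or 2.81% (2.16 to 3.60) of scaffold and 1.32% (0.686 to 2.30) of HGF scaffold nuclei. Its 10 leading genes by fold, Cxcl2, G0s2, Il1b, Slpi, Ccl3, Nos2, Cxcl3, Il1rn, Irg1 and Car4, held no marker of the class, which was named from 6 markers among the leading 100, including Il1r2, Lcn2, S100a8, S100a9 and Trem1. The 0 of 2248 untreated nuclei allow a share of up to 0.133%. As 61 of the 73 came from 1 library, the cluster may reflect that library. Of 12 neutrophil markers, 9 had UMIs in the class with scaffold, with Camp, Mmp8 and Ngp at 0, and 6 with HGF scaffold, where Retnlg, Trem1 and Niacr1 were at 0 too. Over all nuclei the summed neutrophil marker level was 26.9, 262.6 and 426.7 CPM, so it was highest in the HGF scaffold library, where Cxcl2 was lower than with scaffold alone. The class held 359 of 1521 marker UMIs with scaffold and 141 of 619 with HGF scaffold, so most marker UMIs lay outside it.

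In neutrophil-like nuclei Cxcl2 had 1440 UMIs with scaffold, or 7507.5 CPM (7125 to 7906), and 157 UMIs with HGF scaffold, or 7637 CPM (6489 to 8929). The level did not differ beyond counting error. With mixed nuclei counted, the class held a similar part of each library's Cxcl2, 59.9% and 61.8% of its UMIs. A Cxcl2 UMI was found in 73.8% of them with scaffold (median depth 1703 UMIs) and in 8.33% of oligodendrocyte-like nuclei (2382 UMIs), a class that should lack the gene. After thinning every nucleus to 500 UMIs the shares were 60.7% (47.3 to 72.9) and 2.60% (0.851 to 5.97). Leaving out mixed nuclei, which were 10 of the 61, left 790 of the 1440 scaffold UMIs, at a level of 7816 CPM (7280 to 8380). The class then held 790 of 1047 Cxcl2 UMIs with scaffold and 114 of 196 with HGF scaffold, so the parts were no longer similar.

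Ccl3 was concentrated in the same nuclei, at 2018 CPM (1822 to 2229) and 3210 CPM (2483 to 4085), which made up 48.2% and 32.4% of the library's Ccl3 UMIs. Without mixed nuclei the levels overlapped, at 2642 CPM (2334 to 2978) and 2414 CPM (1717 to 3300). Of the 45 scaffold neutrophil-like nuclei with a Cxcl2 UMI, 37 also had Ccl3, or 82.2% (68.0 to 92.0), and 10 had Cxcl1. Across all scaffold nuclei, 119 of the 259 with Cxcl2 had Ccl3, or 45.9%, against 12.3% of all nuclei. Cxcl1 was at 193 CPM (136 to 266) and 632 CPM (337 to 1081) in the class, from 37 and 13 UMIs. Ccl2 was at 78.2 CPM (43.8 to 129) with scaffold, from 15 UMIs in 6 nuclei, and at 0 UMIs with HGF scaffold. No neutrophil-like nucleus of either library had a UMI of Cxcl10, Ccl4 or Ccl5. The related ligand gene Cxcl3, no member of the set, was at 469 CPM (377 to 577) there with scaffold.

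**Figure D2:**
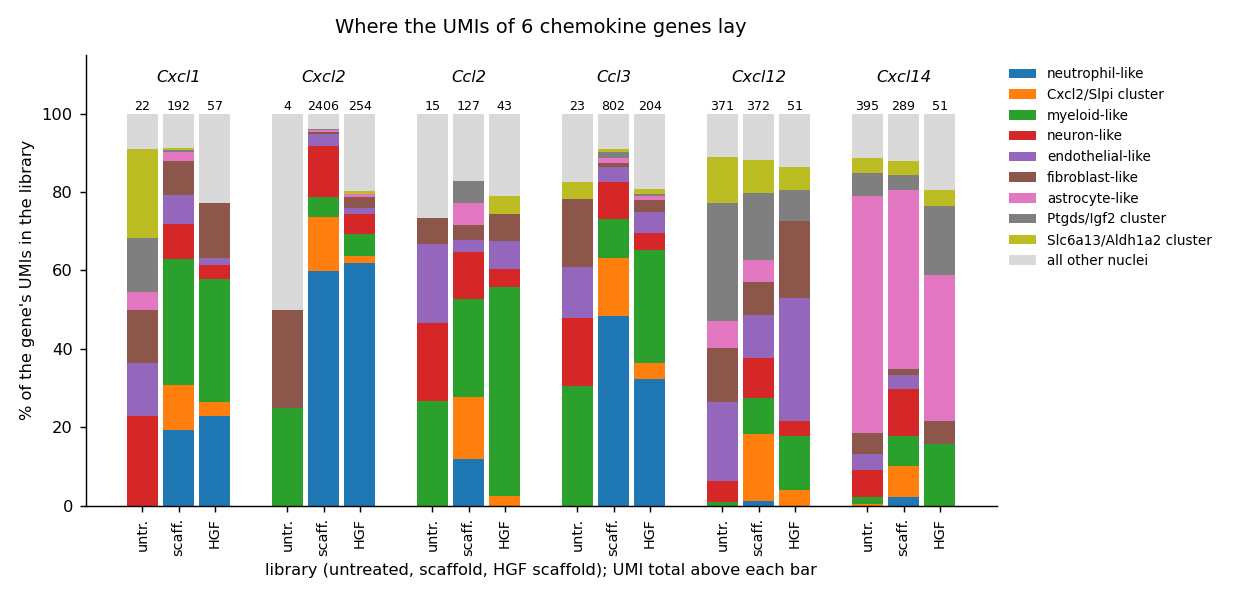
Share of each gene's UMIs (percent, vertical axis) that lay in each class or cluster, for 6 chemokine genes in the 3 libraries, with the gene's UMI total above each bar. Neutrophil-like nuclei hold 59.9% and 61.8% of Cxcl2 UMIs in the implant libraries, astrocyte-like nuclei hold 60.5% of untreated Cxcl14 UMIs, and Cxcl12 and Ccl2 are spread over many classes.

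A second cluster with high Cxcl2 stayed unnamed. It was led by Cxcl2, the protease inhibitor gene Slpi and G0s2, held 1, 96 and 14 nuclei, and had a median depth of 7467.5 UMIs with scaffold, so 96 of its 111 nuclei came from 1 library. Of those 96 nuclei, 60 were mixed. Cxcl2 stood there at 392 CPM (351 to 436) with scaffold and at 57.8 CPM (18.8 to 135) with HGF scaffold, and Ccl3 at 141 CPM (117 to 169) and 92.5 CPM (39.9 to 182). Without this cluster and the neutrophil-like class, a choice made after seeing the data, the Cxcl2 ratio of scaffold over untreated was 198 (77.0 to 729) and that of Ccl3 16.1 (10.5 to 25.7). The HGF scaffold over scaffold ratio was then 0.514 (0.408 to 0.640) for Cxcl2, no longer past 2-fold, and 1.56 (1.26 to 1.92) for Ccl3.

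In myeloid-like nuclei (microglia and macrophages), Cxcl2 was lower in the HGF scaffold library than with scaffold alone, while Ccl3 was higher there, at levels also counted in neuron-like and oligodendrocyte-like nuclei. The class held 261, 562 and 405 nuclei in 3 clusters. The cluster led by Arg1 and Itgam held 14, 268 and 248 of them, and that led by Lyz2 and Spp1 32, 177 and 120. The cluster led by Alpk3 and the microglia marker Slc2a5 held 215, 117 and 37. The cluster with the most myeloid-like nuclei was thus the last one in the untreated library and the Arg1 and Itgam cluster in both implant libraries. Of the members, 2 were past 2-fold lower with HGF scaffold (Cxcl2 and Cxcl12), 0 higher, 4 neither and 3 under the minimum, where 3.12% of 8141 genes were higher and 4.83% lower. Cxcl12 stood at 0.445 (0.167 to 1.02) from 7 and 34 UMIs, an interval that includes 1.

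Myeloid-like Cxcl2 had 1, 123 and 14 UMIs, or 4.24 CPM (0.107 to 23.6), 109 CPM (90.8 to 130.3) and 26.9 CPM (14.7 to 45.1). The scaffold library was above both others, and the HGF scaffold over scaffold ratio was 0.246 (0.131 to 0.429). It was 0.163 (0.0581 to 0.370) in the Lyz2 and Spp1 cluster, from 6 and 82 UMIs, of which 36 came from 1 nucleus, and 0.551 (0.216 to 1.25) in the Arg1 and Itgam cluster, from 8 and 27. Thinned to 500 UMIs, 3.74% (2.33 to 5.66) of scaffold and 1.23% (0.402 to 2.86) of HGF scaffold myeloid-like nuclei had a UMI. The thinned share with scaffold was thus within the intervals of oligodendrocyte-like (2.60%) and neuron-like (4.15%) nuclei. At 500 UMIs it was not distinguishable from classes that should lack the gene. At full depth without mixed nuclei, scaffold myeloid-like nuclei stood at 112 CPM (93.2 to 134). That was above oligodendrocyte-like nuclei, at 31.7 CPM (18.1 to 51.5), and endothelial-like nuclei. It overlapped neuron-like nuclei, at 107 CPM (79.5 to 142), and the precursor-like, fibroblast-like and astrocyte-like classes.

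Ccl3 in the class had 7, 79 and 59 UMIs, or 29.7 CPM (11.9 to 61.2), 70.1 CPM (55.5 to 87.4) and 113 CPM (86.3 to 146). The order rose from untreated to HGF scaffold, with overlapping intervals between neighbouring libraries. The ratio of scaffold over untreated was 2.36 (1.10 to 6.07), of HGF scaffold over scaffold 1.62 (1.13 to 2.29) and of HGF scaffold over untreated 3.82 (1.74 to 9.91). Within the Lyz2 and Spp1 cluster alone these were 1.14 (0.363 to 5.74), 1.20 (0.678 to 2.05) and 1.36 (0.409 to 7.10), while in the Arg1 and Itgam cluster HGF scaffold over scaffold was 2.32 (1.37 to 3.97). Classes that should lack Ccl3 also had UMIs in the implant libraries. Neuron-like nuclei stood at 66.0 and 111 CPM, a ratio of 1.68 (0.739 to 3.35), and oligodendrocyte-like nuclei at 39.1 and 133 CPM. Thinned to 500 UMIs, 3.74% and 5.43% of myeloid-like nuclei had a Ccl3 UMI with scaffold and HGF scaffold, against 2.08% (0.571 to 5.25) and 4.76% (1.56 to 10.8) of oligodendrocyte-like nuclei. At 500 UMIs the myeloid-like share was not distinguishable from the oligodendrocyte-like one in either implant library. At full depth without mixed nuclei, scaffold myeloid-like nuclei stood at 67.8 CPM (53.1 to 85.2) and oligodendrocyte-like nuclei lower, at 37.65 CPM (22.67 to 58.8), with overlapping intervals.

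Cxcl1 was found in 0 of 261 untreated myeloid-like nuclei, against 62 UMIs, or 55.1 CPM (42.2 to 70.6), with scaffold and 18 UMIs, or 34.6 CPM (20.5 to 54.6), with HGF scaffold. Taken against a floor of 3 counts in the class, scaffold was at least 4.33-fold higher than untreated, while the exact interval began at 3.415. Within the Lyz2 and Spp1 cluster, with 28 scaffold UMIs and 0 in 32 untreated nuclei, a difference was not detectable at this depth. Ccl2 had 4, 32 and 23 UMIs, or 17.0 CPM (4.62 to 43.4), 28.4 CPM (19.4 to 40.1) and 44.2 CPM (28.0 to 66.3), with every neighbouring pair overlapping, and all 4 untreated UMIs lay in the Lyz2 and Spp1 cluster. Within that cluster the order was the other way, with 118 CPM untreated and 41.6 CPM with scaffold, a ratio of 0.354 (0.115 to 1.45). Myeloid-like nuclei held 25.2% (17.9 to 33.7) of Ccl2 UMIs with scaffold, beside 19.4% of all UMIs, and 53.5% (37.6 to 68.8) with HGF scaffold, beside 35.9% of all UMIs.

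**Figure D3:**
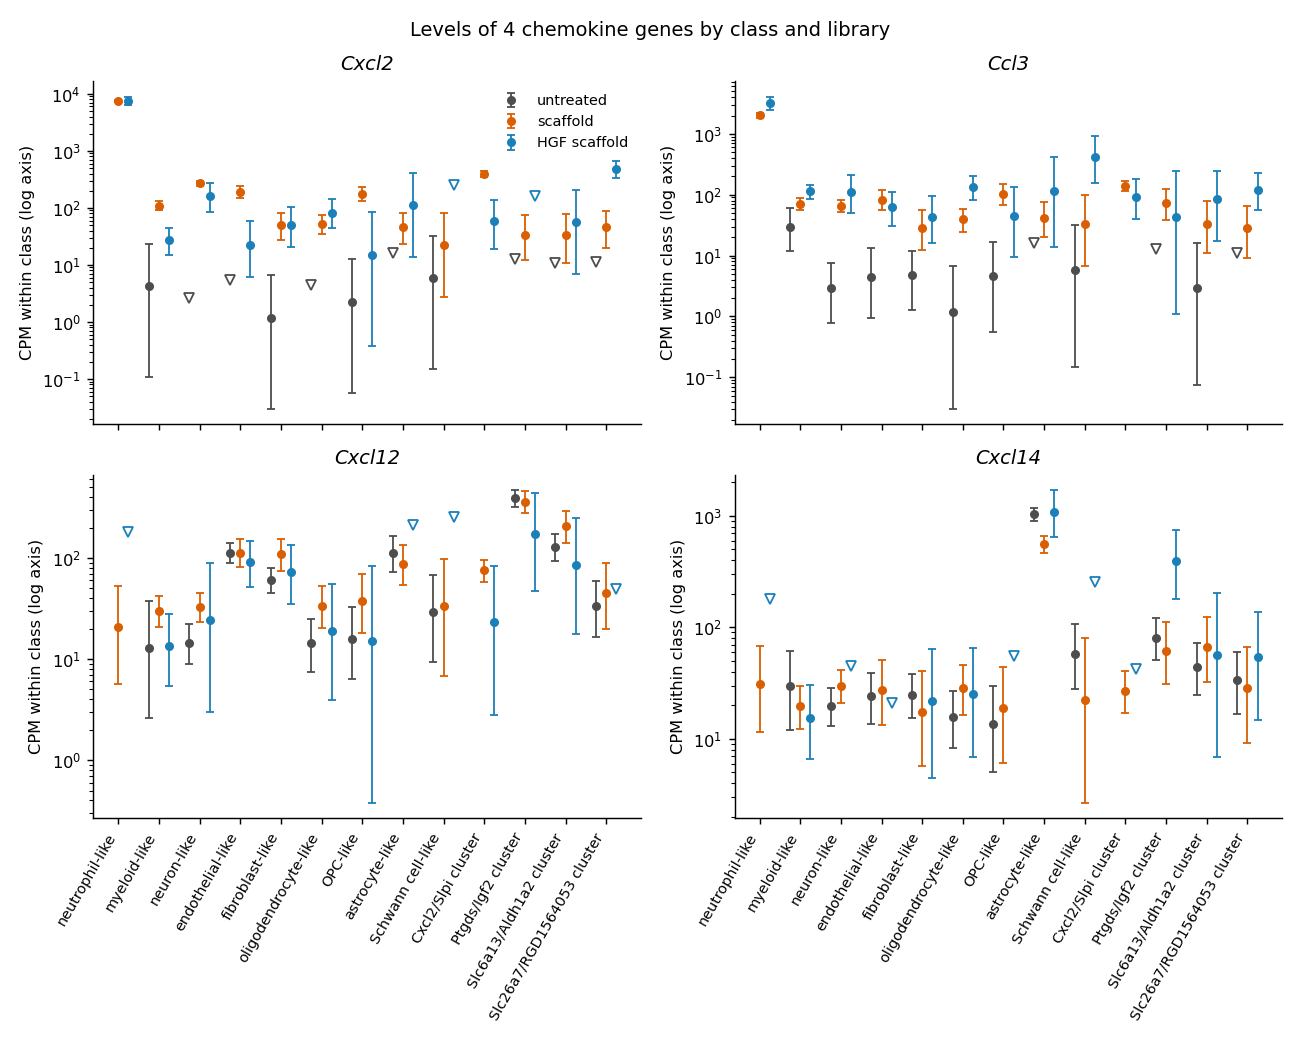
CPM of Cxcl2, Ccl3, Cxcl12 and Cxcl14 within each class or cluster (horizontal axis) for the 3 libraries, on log axes, with exact Poisson 95% intervals; an open triangle marks 0 UMIs and is drawn at the upper end of the interval. Cxcl2 and Ccl3 are highest in neutrophil-like nuclei, at 7507.5 and 2018 CPM with scaffold, Cxcl14 in astrocyte-like nuclei, and Cxcl12 in the Ptgds and Igf2 cluster.

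Cxcl2 UMIs were also counted in neural and vascular classes of the scaffold library, mostly in few and mixed nuclei. Neuron-like nuclei had 313 UMIs, or 268 CPM (239 to 299), 110 of them in 1 nucleus, and 107 CPM (79.5 to 142) from 49 UMIs without mixed nuclei, which were 60 of 193. Endothelial-like nuclei had 69 UMIs, or 190.3 CPM (148 to 241), 34 of them in 1 nucleus, and 33.1 CPM (13.3 to 68.2) from 7 UMIs without mixed nuclei. Nuclei like oligodendrocyte precursor cells had 47 UMIs, or 177 CPM, and 52.3 CPM (23.9 to 99.3) from 9 UMIs without them. Astrocyte-like, fibroblast-like and oligodendrocyte-like nuclei stood at 46.2, 49.2 and 51.6 CPM and overlapped one another. The untreated library had 0 Cxcl2 UMIs in neuron-like, endothelial-like, oligodendrocyte-like and astrocyte-like nuclei. With HGF scaffold over scaffold, Cxcl2 was at 0.119 (0.0315 to 0.318) in endothelial-like nuclei, from 4 and 69 UMIs. In precursor-like nuclei it was at 0.085 (0.00211 to 0.497), from 1 and 47. Without mixed nuclei these were 0.92 (0.199 to 3.64) and 0.332 (0.00757 to 2.39), too few UMIs for a call. Neuron-like nuclei stood at 0.596 (0.314 to 1.03), fibroblast-like at 1.03 and oligodendrocyte-like at 1.59 (0.761 to 3.16). Without mixed nuclei the oligodendrocyte-like ratio was past 2-fold higher, at 2.67 (1.18 to 5.91), from 13 and 16 UMIs.

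The ratio of Cxcl2 to Ccl3 differed between classes of 1 library. With scaffold there were 3.72 Cxcl2 UMIs per Ccl3 UMI (3.32 to 4.17) in neutrophil-like nuclei, 4.07 (3.16 to 5.29) in neuron-like nuclei and 2.78 (2.25 to 3.45) in the cluster led by Cxcl2 and Slpi. Myeloid-like nuclei had 1.56 (1.16 to 2.09) and those of the Arg1 and Itgam cluster 0.964 (0.547 to 1.70), both below the neutrophil-like ratio. With HGF scaffold the ratio was 2.38 (1.77 to 3.22) in neutrophil-like and 0.237 (0.122 to 0.430) in myeloid-like nuclei. Without mixed nuclei, a setting chosen after seeing the data, the scaffold ratio was 2.96 (2.57 to 3.41) in neutrophil-like nuclei, 1.53 (0.961 to 2.47) in neuron-like and 1.66 (1.23 to 2.25) in myeloid-like nuclei. The neuron-like ratio therefore overlapped the neutrophil-like one only with mixed nuclei counted, and lay with the myeloid-like one without them. The smaller Alpk3 and Slc2a5 cluster, at 1.40 (0.578 to 3.52), overlapped both. The part of free RNA and of merged nuclei in these levels was not tested.

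**Figure D4:**
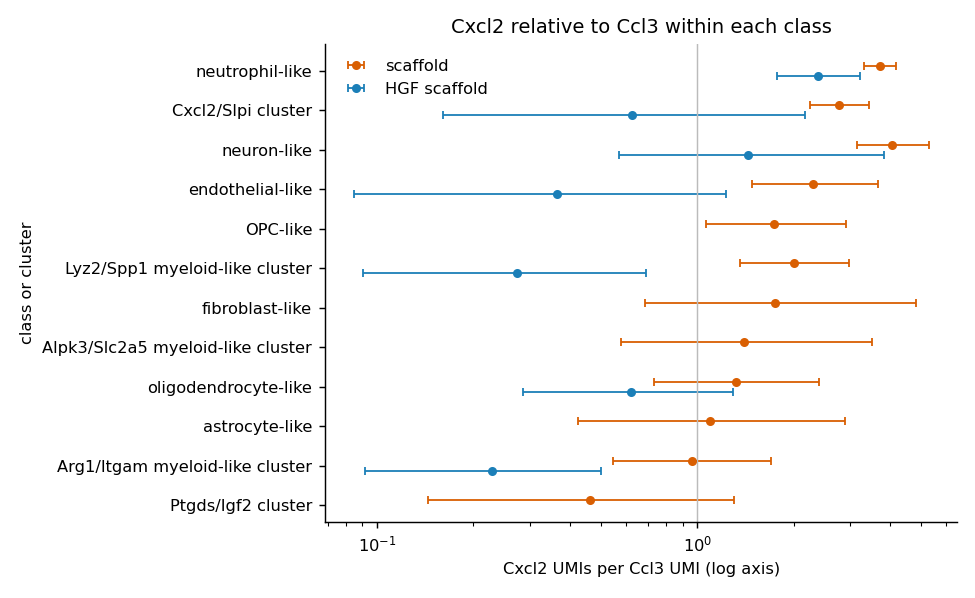
Cxcl2 UMIs per Ccl3 UMI (horizontal, log axis) in each class or cluster of the scaffold and HGF scaffold libraries, with exact 95% intervals for counting error. Neutrophil-like nuclei stand at 3.72 with scaffold and 2.38 with HGF scaffold, and the Arg1 and Itgam myeloid-like cluster at 0.964 with scaffold.

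Some of the inducible members were seen in other cells of the implant libraries. Fibroblast-like nuclei had 3, 17 and 8 Cxcl1 UMIs, or 3.54 CPM (0.731 to 10.4), 59.7 CPM (34.8 to 95.6) and 58.0 CPM (25.0 to 114). Both implant libraries were above the untreated library, by 16.9 times (4.88 to 89.8) for scaffold. Without mixed nuclei 8 and 3 UMIs were left, too few for a call, at a ratio of 6.58 (1.58 to 38.5). Oligodendrocyte-like nuclei had 1, 22 and 21 Ccl3 UMIs, or 1.20 CPM (0.0303 to 6.68), 39.1 CPM (24.5 to 59.3) and 133 CPM (82.3 to 203). The HGF scaffold over scaffold ratio of 3.39 (1.78 to 6.47) rested on 9 nuclei, 1 of which held 11 UMIs. In an unnamed cluster led by Slc26a7, Cxcl2 had 0, 8 and 36 UMIs, a ratio of HGF scaffold over scaffold of 10.6 (4.86 to 26.5), and its HGF scaffold UMIs came from 5 nuclei, with up to 17 in 1 of them.

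Cxcl12 was spread over several classes. In each library, among classes and clusters with at least 3 UMIs, it was highest in the unnamed cluster led by Ptgds and Igf2, genes known from the leptomeninges. Its 111, 64 and 4 UMIs came to 388 CPM (319 to 468), 360.2 CPM (277 to 460.0) and 173 CPM (47.3 to 444). The cluster held 238, 182 and 25 nuclei, or 10.6%, 8.39% and 2.76% of a library, and 29.9% and 17.2% of the Cxcl12 UMIs of the untreated and scaffold libraries. The unnamed cluster led by Slc6a13 and Aldh1a2 had 44, 31 and 3 UMIs, or 129 CPM (93.5 to 173), 207 CPM (141 to 294) and 85.2 CPM. Intervals of the pair of clusters overlapped in the HGF scaffold library, and in the scaffold library only just, so their order was clear in the untreated library alone.

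Cxcl12 in endothelial-like nuclei had 75, 41 and 16 UMIs, or 112 CPM (88.5 to 141), 113 CPM (81.1 to 153) and 90.4 CPM (51.7 to 147), with overlapping intervals. Fibroblast-like nuclei had 51, 31 and 10 UMIs, or 60.2 CPM (44.8 to 79.2), 109 CPM (74.0 to 155) and 72.4 CPM (34.7 to 133), with a scaffold over untreated ratio of 1.81 (1.12 to 2.88). Astrocyte-like nuclei had 112 CPM (73.0 to 164), 88.2 CPM (54.6 to 135) and 0 UMIs in 23 nuclei, where 3 UMIs would be 171 CPM, so a lower level there was not detectable at this depth. Myeloid-like nuclei were low, at 12.7, 30.2 and 13.4 CPM. Within each of the endothelial-like and fibroblast-like classes, the HGF scaffold over scaffold ratio had an interval that included 1, at 0.7999 (0.419 to 1.46) and 0.665 (0.291 to 1.39), beside 0.547 over all nuclei. Without mixed nuclei the endothelial-like ratio was 0.511 (0.243 to 0.999).

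Cxcl14 marked astrocyte-like nuclei, and in them it was lower in the scaffold library than in the untreated one. The class held 173, 190 and 23 nuclei, or 7.70%, 8.76% and 2.54% of a library. Cxcl14 had 239, 132 and 19 UMIs there, or 1027.5 CPM (901 to 1166), 554 CPM (464 to 657) and 1083 CPM (652 to 1691). The untreated and HGF scaffold libraries overlapped, and the scaffold library lay below the untreated one, with a ratio of 0.540 (0.433 to 0.670). The ratio of HGF scaffold over scaffold was 1.95 (1.14 to 3.17), resting on 19 UMIs in the 23 HGF scaffold nuclei, and the intervals of these 2 levels only just overlapped. The ratio of HGF scaffold over untreated was 1.05 (0.623 to 1.68). None of the 3 was past 2-fold, but without mixed nuclei scaffold over untreated was, at 0.468 (0.362 to 0.601).

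Cxcl14 UMIs were found in 45.1%, 32.6% and 34.8% of astrocyte-like nuclei, and in 34.7% (27.6 to 42.3), 23.2% (17.4 to 29.8) and 30.4% (13.2 to 52.9) after thinning to 500 UMIs. In oligodendrocyte-like nuclei the thinned shares were 0%, 0.521% and 1.90%. In the other named classes with at least 3 UMIs Cxcl14 did not exceed 57.9 CPM in any library. Astrocyte-like nuclei held 60.5%, 45.7% and 37.3% of all Cxcl14 UMIs, and the HGF scaffold library had the lowest all-nuclei level and the smallest share of these nuclei. The part of the class mix in that level was not tested. In the Ptgds and Igf2 cluster Cxcl14 had 23, 11 and 9 UMIs, or 80.4 CPM (51.0 to 121), 61.9 CPM (30.9 to 111) and 390.2 CPM (178 to 741), the last from 4 nuclei, 1 of which held 6.

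Receptors of the members that could be measured were higher in the implant libraries as well, except Ackr3. Over all nuclei Cxcr4, the receptor of Cxcl12, had 94, 499 and 159 UMIs, or 15.8 CPM (12.8 to 19.3), 86.2 CPM (78.8 to 94.1) and 110 CPM (93.2 to 128). Both implant libraries were above the untreated one, with a scaffold over untreated ratio of 5.45 (4.36 to 6.87). Ackr3, the scavenger of Cxcl12, had 179, 144 and 23 UMIs, at 30.1, 24.9 and 15.9 CPM, with a scaffold over untreated ratio of 0.826 (0.659 to 1.03) and an HGF scaffold over scaffold ratio of 0.638 (0.392 to 0.995). In myeloid-like nuclei Cxcr4 had levels of 42.4 CPM (20.3 to 78.0), 130.5 CPM (110.3 to 153) and 175 CPM (141 to 215).

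Ccr1, bound by Ccl3 and Ccl5, was 6.77 times as high with scaffold as untreated (4.30 to 11.1). Cxcr2, the receptor of Cxcl1 and Cxcl2, had 3, 30 and 9 UMIs, a scaffold over untreated ratio of 10.3 (3.19 to 52.6), and 8 of its 30 scaffold UMIs lay in neutrophil-like nuclei. Cxcr3, the receptor of Cxcl10, had 0, 2 and 0 UMIs and could not be compared. Ccr2 was not analysed here. Of the 7 receptors with enough UMIs, 5 were past 2-fold higher with scaffold and 0 lower, with a median log2 ratio of 2.45 against 0.04 over all genes tested. Of all genes tested, 7.13% were past 2-fold higher and 3.97% lower. With HGF scaffold over scaffold, where 2.16% of all genes tested were higher and 5.46% lower, 0 of 7 receptors were past 2-fold in either direction. The nearest to it, Ccrl2, an atypical receptor of phagocytes, stood at 0.565 (0.298 to 0.993).

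Other chemokine ligands went mostly the same way in the scaffold library. Of 14 with enough UMIs, 9 were past 2-fold higher and 2 lower, where 7.13% and 3.97% of all genes tested were. Their median log2 ratio was 1.64, beside 3.12 for the 7 measured members. Cxcl3, which acts on Cxcr2, had 4, 262 and 79 UMIs and was 67.3 times as high (26.0 to 248.7) as untreated. Ccl20, which draws Ccr6-bearing lymphocytes, had 3, 31 and 0 UMIs, and the scaffold ratio was 10.6 (3.31 to 54.2). Ccl9 was 8.22 times as high (5.20 to 13.6) and the monocyte chemokine Ccl7 6.16 times (3.77 to 10.6). The 2 lower ligands, named after their values were seen, were Ccl21, at 0.290 (0.229 to 0.364), and Cxcl17, at 0.366 (0.211 to 0.610). With HGF scaffold over scaffold, 1 of 14 was past 2-fold higher, Cxcl17 at 2.47 (1.14 to 5.17), and 1 lower, Ccl20. Of all genes tested, 2.16% were higher and 5.46% lower there. The 0 UMIs of Ccl20 put it at or below 0.386 by the floor of 3 counts, while the exact interval reached 0.5045.

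Inflammatory and NF-kappaB genes had 14 of 16 members past 2-fold higher with scaffold and 0 lower, at a median log2 ratio of 2.96. Of all genes tested, 7.13% were higher and 3.97% lower with scaffold, and 2.16% and 5.46% with HGF scaffold over scaffold. Irg1, which makes itaconate, was at 197 times (76.7 to 725.5) the untreated level, the nitric oxide synthase gene Nos2 at 109 times (46.5 to 338), Il1b at 46.5 times (31.1 to 72.9) and Tnf at 32.9 times (5.49 to 1338), the last from 1 untreated UMI. With HGF scaffold over scaffold the list's median was -0.15, with 0 of 16 higher and 1 lower, Il6, at 0.499 (0.128 to 1.41), and Nos2 stood at 0.675 (0.534 to 0.846). Interferon genes moved less, with 4 of 17 higher and 1 lower with scaffold, at a median of 0.39. Ifit3 was at 11.98 times (6.64 to 23.7) and Mx2 at 0.397 (0.270 to 0.575). With HGF scaffold over scaffold, 2 of 17 were higher, the guanylate-binding protein genes Gbp2, at 2.32 (1.66 to 3.21), and Gbp5, at 2.21 (1.23 to 3.86).

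A list of genes of RNA decay, chemokine cleavage and hypoxia had 4 of 8 genes past 2-fold higher with scaffold and 0 lower. The shares over all genes tested were 7.13% and 3.97%, and the list's median log2 ratio was 0.70. The protease gene Mmp9 was at 3.36 times (2.31 to 4.99), the mRNA decay genes Zfp36 at 2.43 times (1.93 to 3.07) and Zc3h12a at 2.40 times (1.63 to 3.58), and the hypoxia factor gene Hif1a at 2.24 times (2.10 to 2.39). With HGF scaffold over scaffold, Mmp9 stood at 2.38 (1.75 to 3.21) and Zfp36 at 2.30 (1.87 to 2.83), while Dpp4, a peptidase that cleaves chemokines, stood at 0.394 (0.153 to 0.854). Cxcl2 was lower in the same comparison, and whether the level of these genes bears on it was not tested.

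**Figure D5:**
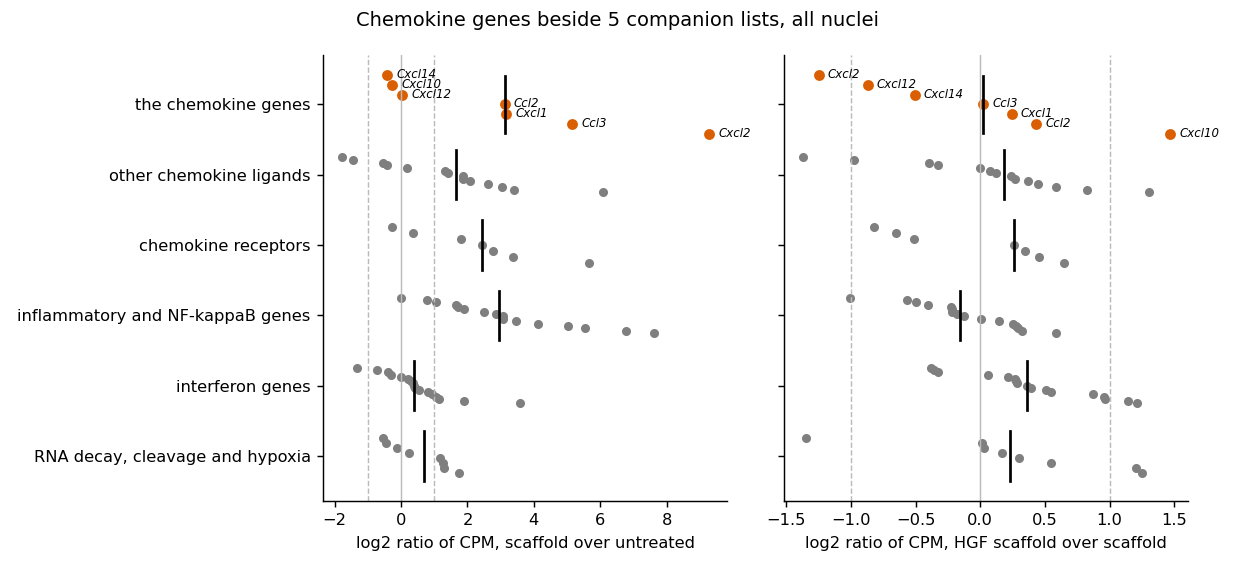
Log2 CPM ratio (horizontal axis) of the 7 measured chemokine genes, labelled, and of the genes of 5 companion lists, for scaffold over untreated (left) and HGF scaffold over scaffold (right); black bars are medians and dashed lines mark 2-fold. With scaffold the chemokine median is 3.12 and that of the inflammatory and NF-kappaB list 2.96; with HGF scaffold over scaffold they are 0.02 and -0.15.

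Genes most like each member by log2(CPM + 10) fell along the same lines across 42 sums of a class or cluster in a library. Each sum had at least 20 nuclei, and myeloid-like nuclei entered by cluster. Neutrophil-like nuclei entered only with scaffold, as the 12 with HGF scaffold were too few. The values are a description, since the points share libraries and depth. Among 9736 genes, Cxcl2 was followed by Ccl3 (r = 0.83), Nos2 (0.80) and Il1b (0.79), and Ccl3 by Irg1 (0.86), Nos2 (0.85) and Lilrb4 (0.84). Cxcl1 was followed by Fbxl5 (0.76), Nfkb2 (0.75) and Arid5b (0.75), and Ccl2 by Tyrobp (0.79), Spp1 (0.79) and Fabp4 (0.77). Cxcl14 was followed by the astrocyte water channel gene Aqp4 (0.90), Ndrg2 (0.88) and Mt3 (0.84), and Cxcl12 by the matrix gene Fbln1 (0.78), Fkbp9 (0.77) and Osr1 (0.76). Between members, r was 0.66 for Cxcl1 with Cxcl2, 0.60 for Ccl2 with Ccl3, 0.26 for Cxcl12 with Cxcl14 and -0.10 for Cxcl12 with Cxcl2.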

How the data were processed

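The tissue was the lesion epicenter, from which nuclei were prepared with a kit for neuronal tissue and run on the 10x Genomics 3' chemistry, per the labels' protocols. Deposited values are raw UMI counts per gene and nucleus. Cell Ranger 6.0.1 is named in the submitters' processing notes as the authors' tool. Which genome build and annotation were used is not given in the sources used here. The lowest nucleus of each library held 500, 500 and 501 UMIs, so barcodes had passed a floor before deposit. Nuclei with at least 200 genes and at most 5% mitochondrial UMIs were kept, 5322 of 5326.

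Doublets were not removed: Scrublet called 2 nuclei, 0.0376%, and so had not worked. Removal of mixed nuclei and of the highest Scrublet scores (81, 75 and 13 nuclei, at 2 times the expected rate of 0.8% per 1000 nuclei) were alternatives. The 3 libraries were clustered together in scanpy 1.11.5 (Python 3.11.15, anndata 0.12.19, numpy 2.4.6, scipy 1.17.1, leidenalg 0.10.2, scikit-learn 1.9.0, pandas 2.3.3; figures in matplotlib 3.10.9) on counts scaled to 10000 per nucleus and logged, with 2000 variable genes, 30 principal components, 15 neighbours and Leiden resolution 1. A cluster took the class, out of 17 with markers, that had the most markers among its leading 100 genes by fold. It stayed unnamed with under 3 markers, a tie, a top 10 with more markers of some other class, 3 markers of a second class at over 2 times its libraries' median depth, or no own marker among the top 10 and a low depth. A rule set after seeing the data also left unnamed a cluster with no own marker among its top 10 genes and under 3 markers ahead. Class names rest on these rules.

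CPM values carry exact Poisson intervals, shares Clopper-Pearson intervals, and ratios exact conditional Clopper-Pearson intervals, all at 95%. A count of 0 was set at a floor of 3 counts in each class and library, and the ratio is then a bound that leaves out counting error in the other library. Simulated counts, with 200 genes changed, were drawn from the Poisson distribution that the intervals assume, so coverage near 95% was fixed in advance. They covered 11924, 11295 and 11426 genes of scaffold over untreated, HGF scaffold over scaffold and HGF scaffold over untreated. The intervals held the true ratio of 95.6%, 96.1% and 96.0% of genes, and 0.725%, 2.23% and 2.45% of unchanged genes came out past 2-fold. Clumping of a gene's UMIs in few nuclei was not simulated. The members, lists and rules were chosen with earlier results of these data known. Named beside the members are, in each list, the 4 genes with the largest absolute log2 ratio in the 2 main comparisons, the members' receptors, and the 3 genes most like each member. Some items under this rule are not reported here. Of 288 marker and list entries, 265 were found by symbol.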

Additional observations from a re-analysis of the deposited data

How the results depend on the processing

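No paired analysis was possible because each group has 1 library and the labels give no replicate numbers. The count of members past 2-fold was 4 for scaffold over untreated over all nuclei under each of the 6 alternatives run, and between 4 and 6 for HGF scaffold over untreated, against 5. For HGF scaffold over scaffold over all nuclei it was 2 in the setting reported, 1 without mixed nuclei, 1 with each nucleus weighted equally and 1 with nuclei thinned to 500 UMIs, and 0 without the neutrophil-like and deep unnamed nuclei. The 1 member was Cxcl12 without mixed nuclei and with equal weights, and Cxcl2 after thinning. In myeloid-like nuclei it was 2, and 1 with nuclei thinned to 500 UMIs, where 2 members still had enough UMIs.

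Of 640 log2 ratios recomputed, 570 kept direction and size, 63 moved and 7 changed sign. With each nucleus weighted equally Cxcl10 stood at -0.47 for HGF scaffold over scaffold and -0.90 over untreated. Thinned to 500 UMIs, Cxcl2 for HGF scaffold over scaffold stood at 0.38 in endothelial-like nuclei (2 against 3 UMIs) and at 0.49 in precursor-like nuclei, with 0 UMIs set at the floor against 5, and Cxcl12 for scaffold over untreated at -0.89 in neuron-like nuclei (2 against 0). Cxcl12 for scaffold over untreated in myeloid-like nuclei stood at -0.28 with each library clustered alone, and Ccl3 for HGF scaffold over scaffold in oligodendrocyte-like nuclei at -0.23 with Leiden resolution 2 (3 against 11 UMIs). The cause was not tested. Of the values past 2-fold, 55 of 66 over all nuclei and 190 of 216 within a class stayed past it. Depth limits Ccl4, Ccl5 and Cxcl10, and every class of the HGF scaffold library with few nuclei.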
